A study of Danio rerio with 9 samples.

Results

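Apolipoprotein genes with high read counts in the zebrafish proepicardium were described across the dissected tissues of the larval heart region. The set holds 6 genes: apoa2 (ENSDARG00000015866), apobb.1 (ENSDARG00000022767), apoa1b (ENSDARG00000101324), apoa4b.1 (ENSDARG00000040298), apoB (ENSDARG00000042780) and apoc1 (ENSDARG00000092170). They were chosen by identifier, from 32520 gene rows of the count table, because their counts were high in the proepicardium relative to the heart tube and the pericardium. No cut-off goes with that choice. Their levels in the proepicardium are therefore given as a description, without a test. Another 16 rows have a symbol that starts with apo and were looked at beside them as apolipoprotein genes by name. Symbols that start with apobec, apool, apold or apopt, and the symbol apoo, were left out of this list. Of these 22 genes, 18 passed the filter on low counts that left 17003 genes for testing, among them the 6 chosen genes and 12 of the other 16.

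All libraries came from larvae of the AB strain at 60 hours post fertilisation that carried the same pair of reporter transgenes, epi:eGFP and myl7:mRFP, so every tissue shares this genotype. The labels list 4 libraries of the proepicardium, the cluster of cells on the pericardial wall from which the epicardium forms. They list 3 libraries of the heart tube and 2 of the dorsal pericardium. Each library is a pool of at least 10 organs dissected by hand, from which the SMARTer Ultra Low Input kit made and amplified cDNA after lysis. The text on the design gives 3 samples for the proepicardium, and all 4 of the labels were used. The labels do not say whether the pools came from separate clutches, so p-values measure the spread between these pools only. The pieces were not sorted by reporter, and neighbouring tissue cut along with an organ is part of its library. In such bulk samples, a change in the number of cells of a type and a change in the RNA per cell cannot be told apart.

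Apolipoproteins are the protein parts of lipoprotein particles, which carry triglycerides, phospholipids and cholesterol through plasma and interstitial fluid. B-type apolipoproteins are very large, stay with their particle for its whole life and form the scaffold of the triglyceride-rich lipoproteins. The A, C and E types are small, move between particles, and serve as the structural proteins of high-density lipoprotein, as cofactors or inhibitors of plasma lipases, or as ligands of lipoprotein receptors. In zebrafish larvae the yolk syncytial layer, the liver and the intestine are among the known sites of apolipoprotein synthesis. The yolk syncytial layer packs yolk lipid into B-type lipoproteins that feed the embryo.

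Sequencing gave between 8883187 counts (proepicardium 4) and 19401502 counts (heart tube 1) per library. Levels below are CPM, that is, counts set relative to the size of the library after TMM adjustment, and their errors are SDs. They are not divided by gene length, so they compare libraries, not genes. A gene at 0 may have up to 3 counts, which is 0.151 to 0.331 CPM depending on the library. The cDNA was amplified and carries no molecular identifiers in these tables, so this floor covers counting error only. The tissue labels were checked on heart muscle genes: 6 of them summed to between 35030 and 50910 CPM in the heart tube libraries, 114 to 468 CPM in proepicardium and 31.6 to 78.3 CPM in pericardium. The 5 epicardial and proepicardial genes summed to 31.8 to 133 CPM in the proepicardium, 162 to 310 CPM in heart tube and 18.2 to 21.4 CPM in pericardium. That sum was carried by podxl and ALDH1A2, at 187 and 53.0 CPM in the heart tube. wt1b, a transcription factor of the proepicardium, was higher in proepicardium than in heart tube, with 1.34 against 0.023 CPM (edgeR adjusted p = 0.00941). Its level in the heart tube lies below the floor given above. podxl was called the other way, with 42.5 against 187 CPM (adjusted p = 0.0108). The other genes of the list did not pass: TCF21 at 4.68 and 2.10 CPM (0.282), ALDH1A2 at 18.85 and 53.0 CPM (0.111) and TBX18 at 1.26 and 1.32 CPM (0.954).

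The 6 genes were abundant in the proepicardium, lower in the heart tube and lowest in the pericardium, and this order of means held for each of them. Over all genes tested, 8.36% had their means in that order. The proepicardium comes first by the choice of the genes, so this share is no measure of how unusual they are. Their joint share of the gene counts was 0.0807% ± 0.0455 in proepicardium libraries (SD, n = 4), 0.0187% ± 0.00735 in heart tube libraries (SD, n = 3) and 0.00663% ± 0.00268 in pericardium libraries (SD, n = 2). The ratio of mean CPM between proepicardium and heart tube ran from 2.80 for apoa2 to 7.14 for apoc1. Between proepicardium and pericardium it ran from 9.98 for apoa1b to 16.5 for apoB.

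**Figure D1:**
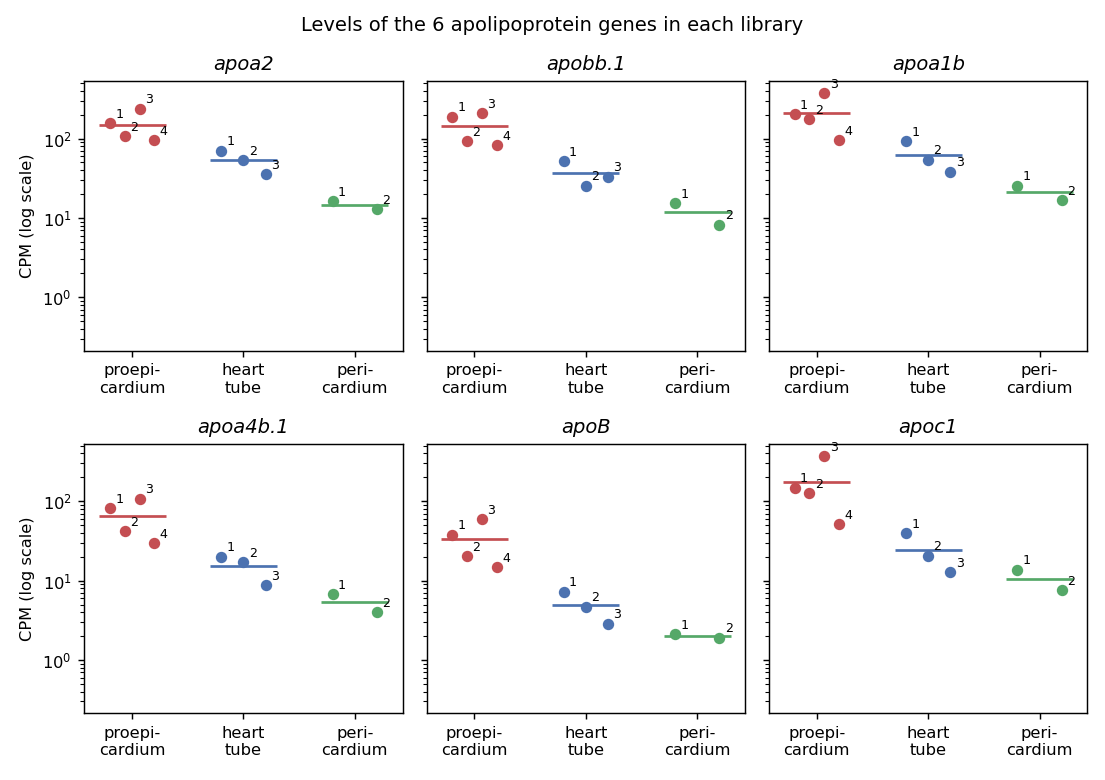
CPM on a log scale for apoa2, apobb.1, apoa1b, apoa4b.1, apoB and apoc1 in the 4 proepicardium, 3 heart tube and 2 pericardium libraries; points are libraries with their replicate number and bars are tissue means. In all 6 panels the proepicardium libraries lie above the heart tube libraries, and apoc1 is the panel in which heart tube and pericardium overlap.

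The B-type genes come first. apobb.1 and apoB both encode apolipoprotein B, the scaffold of very-low-density lipoproteins and chylomicrons. apobb.1 stood at 189, 91.8, 208 and 81.9 CPM in proepicardium libraries 1 to 4, at 51.4, 25.6 and 32.9 CPM in heart tube libraries 1 to 3, and at 15.3 and 8.26 CPM in pericardium libraries 1 and 2. The lowest proepicardium library thus lay above the highest heart tube library, and every heart tube library above both pericardium libraries. The means were 142.5 ± 64.9, 36.6 ± 13.3 and 11.8 ± 4.98 CPM. apoB measured 38.1, 20.3, 59.4 and 14.8 CPM in proepicardium libraries, 7.24, 4.70 and 2.85 CPM in the heart tube, and 2.11 and 1.91 CPM in the pericardium. Its tissues did not overlap either. Its means were 33.1 ± 20.2, 4.93 ± 2.20 and 2.01 ± 0.137 CPM, and its share of the counts of the 6 genes was 4.18% ± 0.466 in the proepicardium against 2.48% ± 0.262 in the heart tube.

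Next are genes of high-density lipoprotein. apoa1b encodes apolipoprotein A-I, the main protein of high-density lipoprotein and the activator of the plasma enzyme that esterifies cholesterol. It stood at 203, 174, 371 and 95.1 CPM in proepicardium libraries, 93.0, 54.3 and 38.1 CPM in the heart tube, and 25.6 and 16.7 CPM in the pericardium. The gap was narrow between the lowest proepicardium library, number 4, and the highest heart tube library, number 1. Means were 210.8 ± 116, 61.8 ± 28.2 and 21.1 ± 6.29 CPM. apoa2 encodes apolipoprotein A-II, another structural protein of high-density lipoprotein. It measured 156, 107, 237 and 94.9 CPM in proepicardium libraries, 70.1, 53.5 and 35.5 CPM in the heart tube, and 16.2 and 12.9 CPM in the pericardium, again without overlap. Its means of 148.6 ± 64.3, 53.0 ± 17.3 and 14.5 ± 2.36 CPM gave the smallest ratio of proepicardium to heart tube among the 6 genes. Its share of their counts was 27.5% ± 2.78 in the heart tube and 20.4% ± 3.69 in the proepicardium.

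apoa4b.1 belongs to the apolipoprotein A-IV genes, whose mammalian product is secreted with chylomicrons. It measured 81.3, 42.1, 108 and 29.6 CPM in proepicardium libraries, 19.96, 17.2 and 8.81 CPM in the heart tube, and 6.72 and 4.00 CPM in the pericardium. The tissues did not overlap, and the means were 65.3 ± 36.1, 15.3 ± 5.80 and 5.36 ± 1.93 CPM. apoc1 encodes apolipoprotein C-I, a small exchangeable protein that in mammals hinders the binding of lipoproteins to their receptors. It stood at 147, 127, 368 and 51.7 CPM in proepicardium libraries, 39.5, 20.5 and 12.8 CPM in the heart tube, and 13.6 and 7.56 CPM in the pericardium. apoc1 had the widest relative spread between proepicardium libraries, and was the only one of the 6 with an overlap, between heart tube 3 and pericardium 1. Its means were 173 ± 136, 24.3 ± 13.8 and 10.6 ± 4.30 CPM. Its share of the counts of the 6 genes was 20.5% ± 5.68 in the proepicardium, 11.8% ± 2.14 in heart tube and 16.0% ± 1.70 in pericardium.

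Fitted log2 fold changes with their approximate standard errors describe the same differences. Between proepicardium and heart tube they were 1.49 ± 0.39 for apoa2, 1.77 ± 0.48 for apoa1b, 1.96 ± 0.44 for apobb.1, 2.09 ± 0.49 for apoa4b.1, 2.74 ± 0.52 for apoB and 2.83 ± 0.66 for apoc1. Their median was 2.03, where that of all genes tested was 0.17. All 6 lay on the called side of the threshold used for every gene, where 29.4% of genes were called, 16.8% with the higher level in the proepicardium, and all 6 had libraries without overlap, where 19.8% of genes did. Since the genes were chosen on this contrast, nothing is read from these counts.

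Between proepicardium and pericardium the fitted log2 fold changes were 3.32 ± 0.61 for apoa1b, 3.35 ± 0.50 for apoa2, 3.59 ± 0.57 for apobb.1, 3.60 ± 0.63 for apoa4b.1, 4.03 ± 0.84 for apoc1 and 4.04 ± 0.68 for apoB. The median was 3.60, beside -0.02 for all genes tested. The proepicardium libraries lay above both pericardium libraries in all 6 genes, which holds for 7.65% of genes. In this contrast edgeR called 0 genes (0% of 17003) at an adjusted p under 0.05, while 834 genes (4.91%) had an unadjusted p under 0.05. DESeq2 called 95 genes, with all 6 of the set among them. limma-voom called 6 genes in all, 5 of them from the set, and edgeR without a filter on low counts called 9 genes, 5 of them from the set. This contrast also entered the choice of the genes, so these counts too are a description.

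The contrast of heart tube and pericardium holds no proepicardium library among its means, and the members were tested in it. Both apoa2 and apobb.1 were higher in the heart tube. For apoa2 the log2 fold change was 1.87 ± 0.48 (edgeR quasi-likelihood test, Benjamini-Hochberg adjusted p = 0.0127), and for apobb.1 it was 1.63 ± 0.53 (adjusted p = 0.0375). The other 4 had positive log2 fold changes that did not pass: 1.55 ± 0.57 for apoa1b (adjusted p = 0.0638), 1.51 ± 0.58 for apoa4b.1 (0.0749), 1.295 ± 0.62 for apoB (0.146) and 1.19 ± 0.74 for apoc1 (0.272). Heart tube libraries lay above both pericardium libraries in 5 of the 6 genes. Among all genes, 27.1% were called, 11.0% with the higher level in the heart tube, and 25.2% had libraries above without overlap. The median of the 6 was 1.53 and that of all genes -0.09.

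These calls rest on few libraries. Without pericardium 1 the edgeR adjusted p was 0.0569 for apoa2 and 0.0607 for apobb.1, and without pericardium 2 it was 0.116 and 0.264. The call of apobb.1 was also lost without heart tube 1 (0.0916) or heart tube 3 (0.0605). In the other direction, apoa1b passed without proepicardium 3 (0.027) or proepicardium 4 (0.0422), libraries of neither tissue in the contrast, and apoa4b.1 did so as well (0.0415 and, just under the threshold, 0.05). Over 17 alternatives the adjusted p ran from 0.00133 to 0.116 for apoa2, 0.0113 to 0.264 for apobb.1, 0.0226 to 0.315 for apoa1b and 0.0388 to 0.353 for apoa4b.1, with positive log2 fold changes throughout. Both tissues had served as the comparison when the genes were chosen, so the test is not fully independent of the choice.

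The 6 genes also shared the order of libraries within a tissue. In the proepicardium, library 3 was highest, followed by libraries 1, 2 and 4, in all 6 genes, an order that 3.78% of all genes tested showed. In the heart tube the order 1, 2, 3 held for 5 genes and for 22.7% of all genes, and apobb.1 had library 2 lowest. Both orders were taken from the mean levels of the 6 genes themselves, so the match of these genes to them is a description. Pericardium 1 lay above pericardium 2 in all 6, as in 50.6% of all genes. Their summed level was 814, 562, 1351 and 368 CPM in proepicardium libraries 1 to 4, 281, 176 and 131 CPM in the heart tube, and 79.5 and 51.3 CPM in the pericardium. The lowest proepicardium pool thus lay nearer to the highest heart tube pool than to the highest proepicardium pool. The total counts ran 17664065, 11230153, 15349088 and 8883187 in the proepicardium libraries, 19401502, 13809619 and 13931320 in those of the heart tube, and 18621318 and 12461469 in those of the pericardium. The deeper library was therefore mostly the one with the higher CPM of these genes, and the part of depth in this order was not tested.

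**Figure D2:**
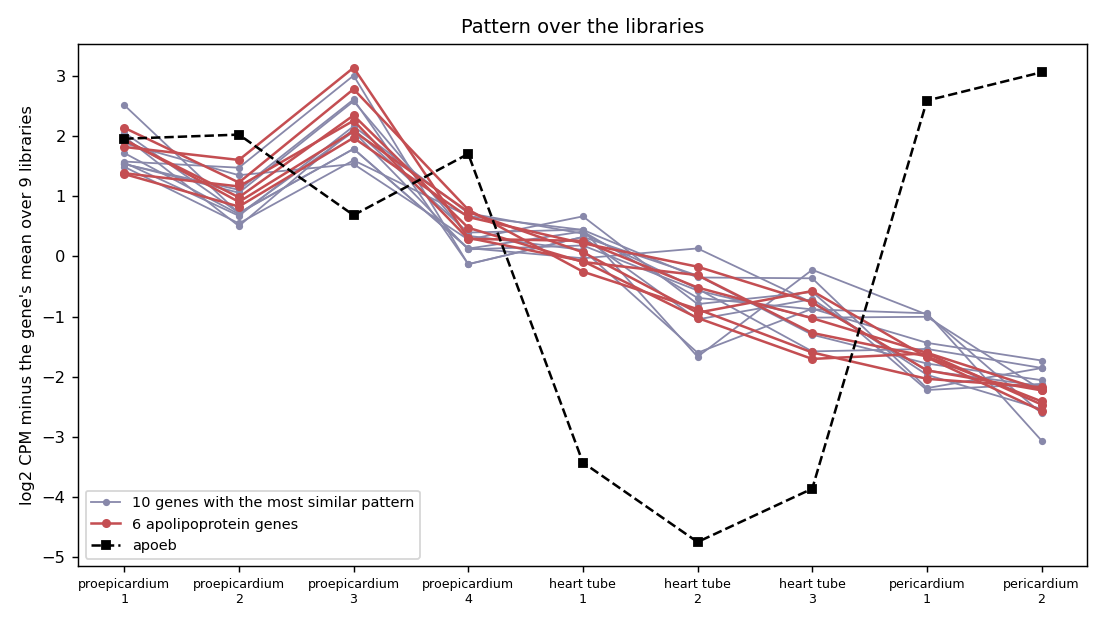
Log2 CPM of each gene minus its mean over the 9 libraries, by library, for the 6 apolipoprotein genes, the 10 genes with the most similar pattern and apoeb. The lines of the 6 genes run together from a peak in proepicardium 3 to a minimum in pericardium 2, while apoeb is lowest in the heart tube and highest in the pericardium.

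Similarity of pattern was measured as the root mean square difference, over the 9 libraries, between a gene's mean-centred log2 CPM and the average profile of the 6 genes. That profile spanned 4.74 log2 units, from 2.42 in proepicardium 3 to -2.32 in pericardium 2. The members differed from it by 0.15 (apoa4b.1) to 0.38 (apoc1) log2 units. The profile is the mean of these 6 genes themselves, which were also chosen for their tissue levels. Their closeness to it is therefore a description. The median difference over the 6687 other genes with a symbol and 10 CPM or more, on average, in the proepicardium was 1.65. The 10 closest of these were pvalb9 (0.32), a parvalbumin, the apolipoprotein genes apoc2 (0.32) and apoa1a (0.34), GATM (0.40), an enzyme of creatine synthesis, and msmbl (0.42). Then followed complement component c3a.1 (0.43), fetub (0.46), a plasma protein of the fetuin family, afp4 (0.52, ENSDARG00000095863), the transferrin gene tfa (0.54) and PLA2G12B (0.59), which in mouse and zebrafish is needed for the secretion of full-sized B-type lipoproteins. With each gene scaled to unit SD, 8 of these 10 were again among the closest 10. The nearest of them to the set in kind, apoa1a, measured 171.8 ± 97.7 CPM in the proepicardium, 51.6 ± 22.2 CPM in heart tube and 24.0 ± 13.5 CPM in pericardium. tfa measured 54.1 ± 38.0, 15.1 ± 7.91 and 5.80 ± 5.13 CPM. Since these genes were picked for their likeness, their own differences between tissues are no further evidence.

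Among the other 12 apolipoprotein genes tested, 6 were higher in proepicardium than in heart tube by edgeR and none was lower, beside 16.8% and 12.7% of all genes. apoa1a, the other apolipoprotein A-I gene, had a log2 fold change of 1.73 ± 0.52 (adjusted p = 0.0264). apoc2, the cofactor that activates lipoprotein lipase, had 1.78 ± 0.50 (adjusted p = 0.0201). apoea, which encodes an apolipoprotein E and so a ligand of lipoprotein receptors, had 3.45 ± 0.60 (adjusted p = 0.00151). Both apoa4a and apoa4b.2, further A-IV genes, passed as well, with 3.92 ± 1.09 (adjusted p = 0.0182) and 3.79 ± 0.97 (adjusted p = 0.0163). apoa4a reached 10 counts in proepicardium libraries only, so it passed the filter on low counts through the tissue in which it was called higher. Its call is therefore a description. The change of apoeb, the second apolipoprotein E gene, was 5.59 ± 0.51 (adjusted p = 2.56e-05).

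apoea measured 38.3 ± 25.8 CPM in the proepicardium, 3.49 ± 1.83 CPM in heart tube and 2.79 ± 0.875 CPM in pericardium. apoc2 measured 31.9 ± 16.3, 9.25 ± 5.84 and 3.71 ± 0.572 CPM, and apoa4b.2 33.7 ± 22.1, 2.40 ± 3.02 and 2.36 ± 1.62 CPM. apoa4a was scarce, at 3.33 ± 2.34 CPM in proepicardium libraries and about 0.22 CPM in each of the other tissues. The latter level lies within the range of the floor given above. The order of proepicardium libraries seen in the 6 genes was shared by 4 of these 12, namely apoa1a, apoea, apoa4b.2 and apoa4b.3, and the order of tissue means by 6 of 12. The call of apoa1a was lost without proepicardium 1 (adjusted p = 0.0612), proepicardium 3 (0.0622), heart tube 2 (0.0978) or heart tube 3 (0.103). The call of apoc2 was lost without proepicardium 3 (0.055), heart tube 2 (0.0819) or heart tube 3 (0.069), and that of apoa4a without proepicardium 1 (0.0512) or heart tube 3 (0.0534) and with the replicate block (0.0572). That of apoa4b.2 was lost without a filter on low counts (0.0887). Without heart tube 3, the count of apolipoprotein genes called in this contrast, the 6 included, was 7 in place of 12. The count over all genes in that fit is not given here, so a general loss of calls cannot be told apart from it.

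Of the 6 others that were not called between proepicardium and heart tube, apobb.2, a further B-type gene, showed 2.17 ± 0.79 on the log2 scale (edgeR adjusted p = 0.0566), and it passed in 6 alternatives: without heart tube 1 (0.0223), without a filter (0.0489), with DESeq2 (0.0145), limma-voom (0.0157), limma on the deposited table (0.0184) and the replicate block (0.0449). The APOD gene ENSDARG00000057437, which encodes a lipocalin, had 3.65 ± 1.295 (0.0608), and passed in 5 alternatives: DESeq2 (0.0213), limma-voom (0.000663), limma on the deposited table (0.00502), the replicate block (0.0486) and without heart tube 1 (0.000206). apoa4b.3 had 2.71 ± 1.12 (0.0918). The apolipoprotein M gene apom had 1.03 ± 0.71 (0.313), apol1 had 0.21 ± 0.55 (0.809) and apol had -0.09 ± 0.71 (0.940), the latter pair with a sign that changed under other settings. Levels of apol1 were 7.47 ± 4.73, 6.48 ± 0.695 and 7.46 ± 2.43 CPM in proepicardium, heart tube and pericardium. Not every gene with the name therefore follows the pattern of the 6. A second APOD gene (ENSDARG00000060350) had no count in any library, and apof, apoda.1 and apoc4 were below the filter.

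**Figure D3:**
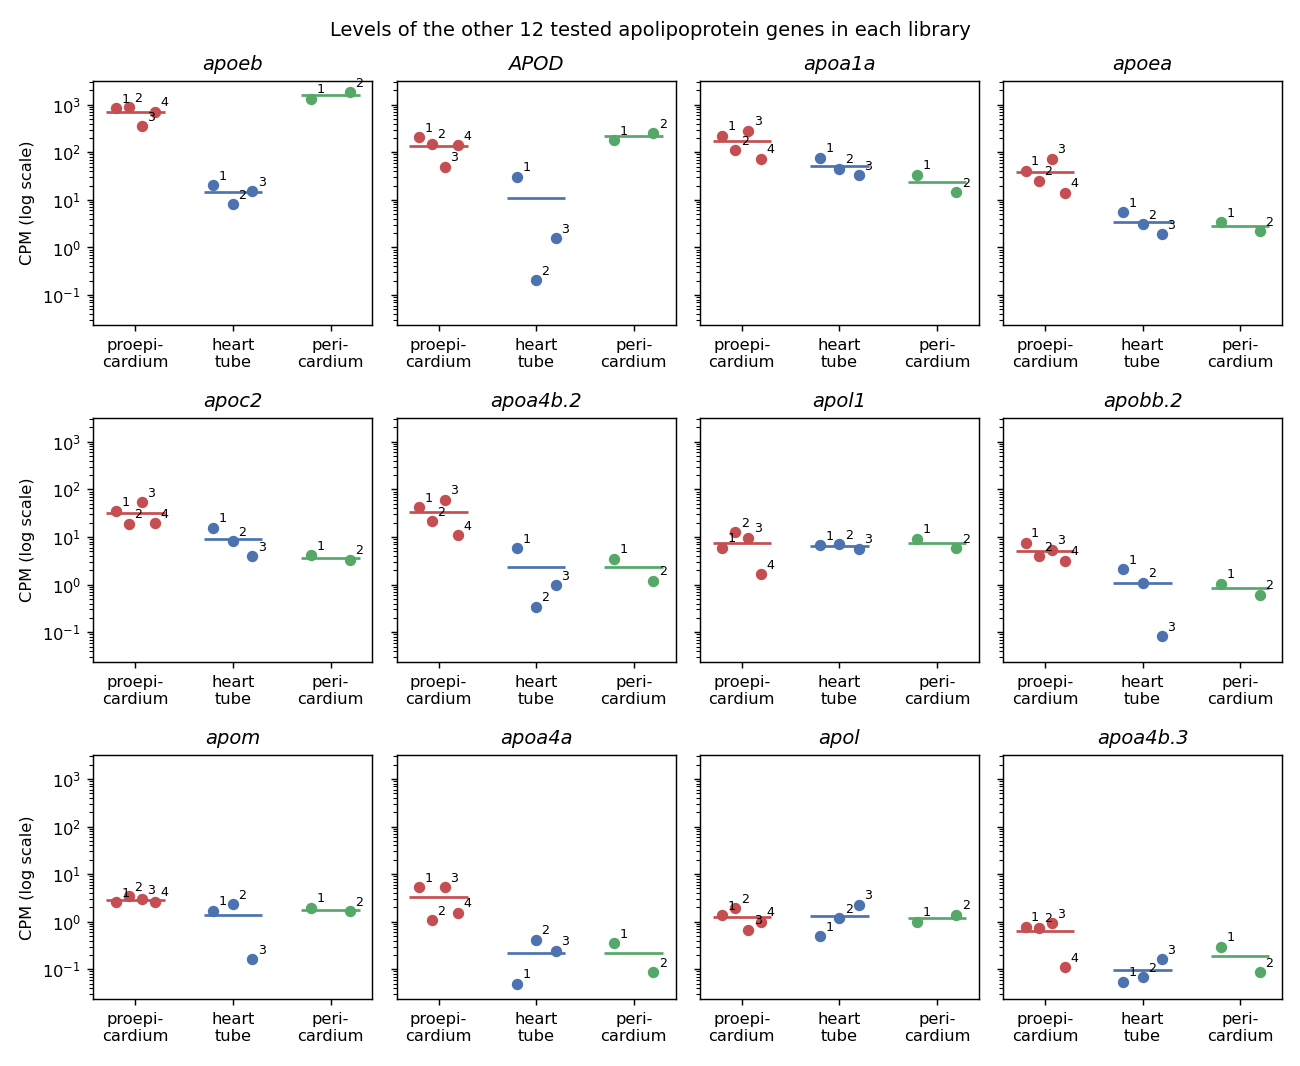
CPM on a log scale for the 12 other apolipoprotein genes tested, by tissue; points are libraries with their replicate number, bars are tissue means, and libraries below 0.05 CPM, those at 0 included, are drawn at 0.05 CPM. apoeb and APOD are near their highest level in the pericardium and lowest in the heart tube, apol and apol1 are level, and apoa1a, apoea and apoc2 fall from proepicardium to pericardium.

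apoeb and APOD departed most from the 6 genes. apoeb stood at 853, 894, 353 and 716 CPM in proepicardium libraries, 20.4, 8.16 and 15.1 CPM in the heart tube, and 1324 and 1835 CPM in the pericardium. Both pericardium libraries lay above all proepicardium libraries, and proepicardium 3, where the 6 genes peaked, was the lowest proepicardium library. Between heart tube and pericardium its log2 fold change was -6.76 ± 0.55 (edgeR adjusted p = 3.73e-05). Between proepicardium and pericardium it was -1.17 ± 0.43 (adjusted p = 0.946), which did not pass. APOD measured 208, 151, 49.5 and 142 CPM in proepicardium libraries, 30.8, 0.21 and 1.55 CPM in the heart tube, and 180 and 252 CPM in the pericardium, with proepicardium 3 lowest again. Its log2 fold change between heart tube and pericardium was -4.30 ± 1.42 (adjusted p = 0.0491), with adjusted p between 0.000169 and 0.242 over 17 alternatives and 6 of them under 0.05. In pattern, apoeb differed from the 6 genes by 3.14 log2 units and ranked 6426 of 6687, and APOD differed by 3.29 and ranked 6507.

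The epidermal genes ordered the libraries much as apoeb did, with only proepicardium 1 and 2 exchanged. The 12 of them summed to 64990, 55630, 15970 and 35260 CPM in proepicardium libraries, 8014, 246 and 364 CPM in the heart tube, and 65570 and 91970 CPM in the pericardium. Proepicardium 3, highest for the 6 genes, was lowest for this list, and the pericardium was highest for this list and lowest for the 6 genes. The part of epidermal tissue in the level of any apolipoprotein gene was not tested.

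Between proepicardium and pericardium, edgeR called none of the 12 others, as it called 0 genes in all. An unadjusted p under 0.05 was reached by 6 of them with a higher level and by apoeb with a lower one, beside 3.82% of all genes with a higher level. The largest log2 fold changes were 3.80 ± 1.17 for apoa4b.2, 3.80 ± 1.28 for apoa4a and 3.77 ± 0.73 for apoea. DESeq2 called apoea, apoc2, apoa1a and apoa4b.2 in this contrast. Between heart tube and pericardium, edgeR called 2 of the 12, apoeb and APOD, both lower in the heart tube, beside 16.1% of all genes.

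**Figure D4:**
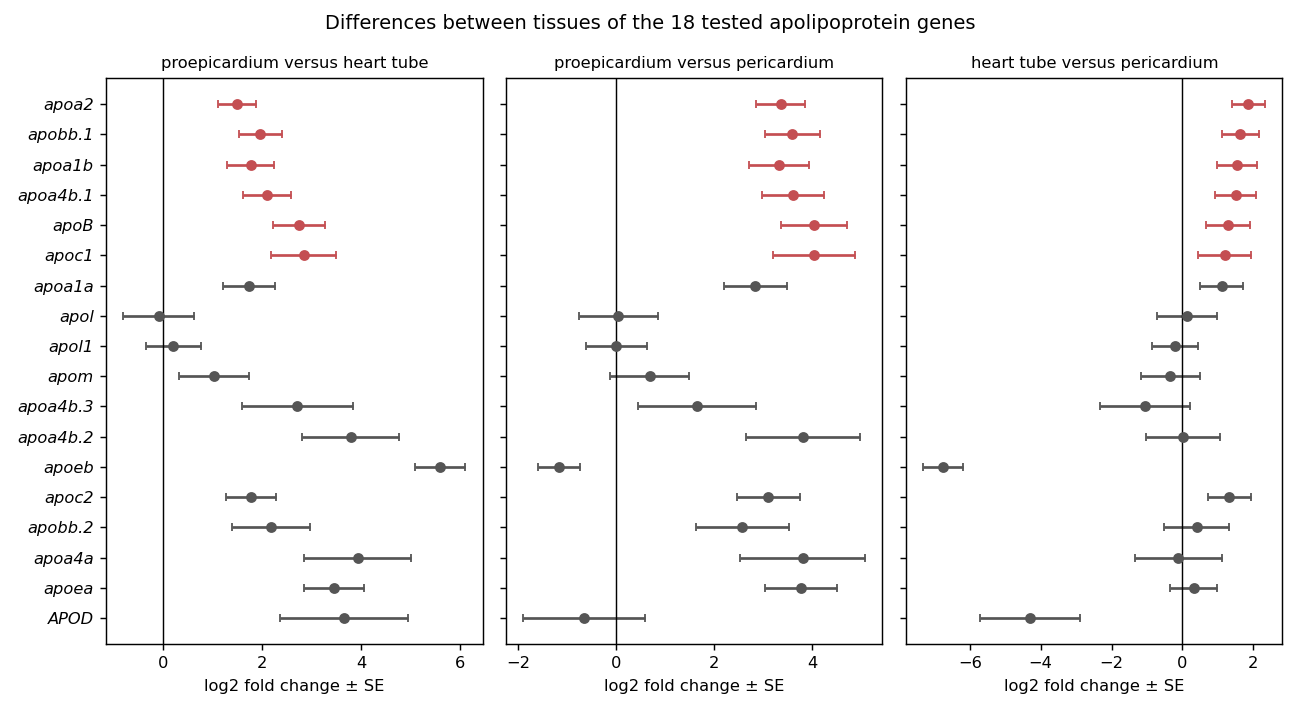
Fitted log2 fold change with its standard error for the 18 apolipoprotein genes tested, in each contrast of tissues; the 6 chosen genes are in red and the 12 others in grey. The 6 chosen genes lie at 1.49 to 2.83 in the contrast with heart tube and at 3.32 to 4.04 in that with pericardium, while apoeb and APOD lie far to the left in the contrast of heart tube and pericardium.

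In the RefSeq gene order of assembly GRCz12tu, which differs from the build of the counts and was used for neighbourhood alone, 8 apolipoprotein genes lie in 1 cluster. In order these are apoa4b.1, apoa4b.3, apoa4b.2, apoeb, apoc1, apoc4, apoa2 and apoc2, so 3 of the 6 genes belong to it. apoeb lies between apoa4b.2 and apoc1, directly next to both. The genes on its sides were lowest in the pericardium or about as low there as in the heart tube. apoeb itself was highest in the pericardium. apoc4, on the far side of apoc1, was at or near 0 in every library. apoa4a and apoea are direct neighbours elsewhere. Of the 22 genes 19 were matched to that table. apoa4b.1, apoa4b.2 and apoa4b.3, apobb.1 and apobb.2, and apoa1a and apoa1b are copies by their names. How alike their sequences are was not measured. Reads shared by copies, if any, may have been counted for either or neither.

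Genes that act with apolipoproteins were counted in the same fit. Of 7 genes of lipoprotein assembly, 1 was higher in proepicardium than in heart tube by edgeR and none was lower, a share near the 16.8% of all genes. That gene was MTTP, which loads lipid onto apolipoprotein B. It measured 8.06, 9.96, 6.14 and 4.42 CPM in proepicardium libraries, 1.71, 0.069 and 0.33 CPM in the heart tube, and 8.73 and 5.22 CPM in the pericardium. Its log2 fold change against the heart tube was 3.28 ± 0.79 (adjusted p = 0.0091), and between heart tube and pericardium -3.25 ± 0.86 (adjusted p = 0.0149). Unlike the B-type genes, which were lowest in the pericardium, MTTP had about the same level there as in the proepicardium. Without proepicardium 1 or heart tube 1 the list had 2 genes called, and it had 3 with DESeq2, limma-voom or limma on the deposited table. Its median log2 fold change was 0.44 versus heart tube and -0.24 versus pericardium.

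Of 8 receptor genes, 1 was higher in proepicardium than in heart tube and 1 was lower by edgeR, shares near the 16.8% and 12.7% of all genes. The higher one was lsr, the lipolysis-stimulated lipoprotein receptor, which is also a tight junction protein. It measured 35.9 ± 15.1 against 1.24 ± 0.945 CPM (log2 fold change 4.81 ± 0.56, edgeR adjusted p = 0.000118). ldlrap1a, an adaptor for uptake by the LDL receptor, was lower, with 19.0 ± 9.52 against 51.0 ± 9.85 CPM (-1.42 ± 0.39, adjusted p = 0.0176), a call lost without heart tube 3 (0.0617). Of 9 genes of plasma lipases and lipid transfer, 2 were higher and 2 lower, shares not far from the 16.8% and 12.7% of all genes. Lipoprotein lipase LPL (ENSDARG00000087697), whose cofactor is apolipoprotein C-II, measured 14.6 ± 9.70 CPM in proepicardium and 48.6 ± 12.2 CPM in heart tube (-1.74 ± 0.50, adjusted p = 0.0220). That call was lost without proepicardium 1 (0.057) or heart tube 2 (0.0764). PLTP, a phospholipid transfer protein, had -1.41 ± 0.46 (adjusted p = 0.0387). LIPG, endothelial lipase, had 1.14 ± 0.37 (adjusted p = 0.0359). LCAT, the cholesterol-esterifying enzyme that apolipoprotein A-I activates, was called higher (adjusted p = 0.0440) from levels of at most 1.13 CPM in proepicardium and 0.055 CPM in heart tube, with overlapping libraries. Over the alternatives, PLTP was called in 8 of 17, LIPG in 6 of 17 and LCAT in 6 of 16, with adjusted p up to 0.105, 0.126 and 0.138. The count of 4 for this list fell to 0 without heart tube 2, to 1 without proepicardium 1 or heart tube 3, and to 2 without proepicardium 2, 3 or 4. Counts over all genes in these fits are not given beside it.

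Of 15 transcription factor genes that are known regulators of apolipoprotein or lipid genes, 5 were higher in proepicardium than in heart tube and 1 was lower by edgeR, beside 16.8% and 12.7% of all genes. The forkhead genes of endoderm and liver led. FOXA2 measured 11.2, 4.07, 30.0 and 30.6 CPM in proepicardium and at most 0.62 CPM in heart tube (a log2 difference of 5.60 ± 0.80, edgeR adjusted p = 0.000414). FOXA1 had 5.28 ± 0.72 (adjusted p = 0.000317) and foxa3 6.35 ± 0.84 (adjusted p = 0.000265). All 3 were also higher in the pericardium than in the heart tube, where the 6 apolipoprotein genes had the opposite sign. creb3l3a, a membrane-bound factor that in mouse liver drives apolipoprotein genes, was called higher (adjusted p = 0.0166), a call lost with limma-voom (0.0786) and without heart tube 2 (0.0544). It stood at 1.69 ± 1.34 CPM in the proepicardium and at 0.046 ± 0.042 CPM in the heart tube, which is below the floor. It passed the filter on low counts through its proepicardium libraries, so its call is a description. Its paralog creb3l3b was lower, with 0.137 ± 0.123 against 7.23 ± 3.24 CPM (-5.49 ± 0.78, adjusted p = 0.000559). NR5A2, a nuclear receptor, had 2.31 ± 0.75 (adjusted p = 0.0389), called in 6 of 17 alternatives with adjusted p up to 0.221. HNF4A, a factor of the liver that controls many apolipoprotein genes in mammals, reached at most 21 counts in a library and was below the filter.

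Markers of tissues known to make apolipoproteins were read beside these results. Of 26 liver gene rows 18 were tested, and 10 were higher in proepicardium than in heart tube with none lower, beside 16.8% and 12.7% of all genes, at a median log2 fold change of 2.06 where that of all genes was 0.17. Among them FGG had 2.51 ± 0.54 (edgeR adjusted p = 0.00488), serpina1l 2.42 ± 0.61 (0.0109) and fga 2.01 ± 0.65 (0.0370), all plasma proteins of the liver. Leaving out 1 library lowered the count of 10 to 4 without proepicardium 1 or heart tube 2, and to 5 without proepicardium 3 or heart tube 3. Counts over all genes in these fits are not given beside it. Against the pericardium the median was 2.91, edgeR called 0, as for all 17003 genes, and 11 genes had libraries above without overlap and 2 below, beside 7.65% and 7.75% of all genes. The liver rows summed to 2250, 2385, 508 and 328 CPM in proepicardium libraries 1 to 4, 42.9 to 84.3 CPM in heart tube and 2826 to 2958 CPM in pericardium. Their sum was thus highest in the pericardium, where the 6 genes were lowest. RBP4, a plasma carrier of retinol, made up much of that sum, with 1618, 2061, 231 and 141 CPM in the proepicardium libraries, 1.45 to 4.37 CPM in those of the heart tube and 2118 and 2502 CPM in those of the pericardium. Rows of the list differed among themselves. Several plasma protein genes of the liver had their means in the order of the 6 genes: c3a.1 stood at 14.1, 4.81 and 1.34 CPM in proepicardium, heart tube and pericardium, serpina1 at 7.36, 1.70 and 0.507 CPM, and FGB at 8.65, 1.58 and 0.786 CPM, as did tfa above. Other rows were at or near 0: fabp10a, the liver fatty acid binding protein of zebrafish, was at 0 in 8 of 9 libraries, GC was at 0 in all, and ahsg1, ahsg2 and TTR reached at most 1, 3 and 7 counts. The part of liver cells in the level of the 6 genes was not tested.

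**Figure D5:**
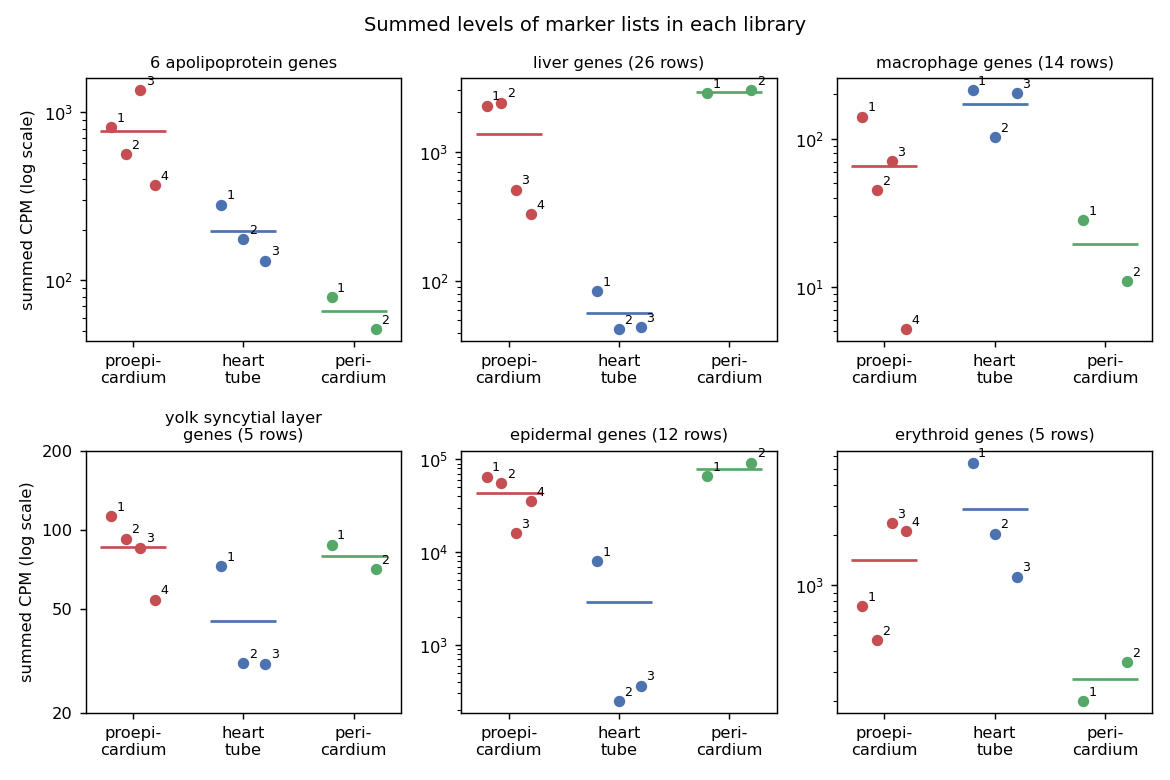
Summed CPM on a log scale of the 6 apolipoprotein genes and of marker lists in each library; points are libraries with their replicate number and bars are tissue means. The sum of the 6 genes falls from proepicardium to pericardium, the liver and epidermal lists are lowest in the heart tube, the macrophage list is highest there in its mean, and the erythroid list is lowest in the pericardium.

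Of 8 enterocyte gene rows only FABP2, an intestinal fatty acid binding protein, passed the filter. It was higher in proepicardium than in heart tube, with 30.4 against 2.12 CPM (log2 fold change 3.84 ± 0.38, edgeR adjusted p = 4.67e-05), and stood at 20.8 CPM in the pericardium. Among all genes, 16.8% were called higher in the proepicardium in that contrast. FABP6 was at 0 in every library. Of 5 rows for the yolk syncytial layer, 3 were tested. Only the afp4 row ENSDARG00000095863 was called higher in proepicardium than in heart tube (1.19 ± 0.36, edgeR adjusted p = 0.0278), beside the same 16.8% of all genes. The factors mxtx1 and mxtx2, which define that layer early on, were at 0 in 8 and 5 of 9 libraries. The list summed to 54.1 to 113 CPM in the proepicardium, 30.9 to 72.7 CPM in heart tube and 71.0 to 87.9 CPM in pericardium. Most of the pericardium sum came from SLC40A1, the iron exporter ferroportin, at 42.6, 24.6 and 74.8 CPM by tissue. Both afp4 rows had the tissue order of the 6 genes instead, with 39.2, 17.2 and 4.37 CPM for ENSDARG00000095863 and 4.01, 3.12 and 0.237 CPM for ENSDARG00000041490, and their proepicardium libraries lay above both pericardium libraries. Embryonic blood genes summed to 743.5, 464, 2358 and 2112 CPM in proepicardium libraries 1 to 4, 5435, 2042 and 1120 CPM in the heart tube, and 199.5 and 343 CPM in the pericardium. They were highest in the heart tube by their mean, and proepicardium 4, the lowest of its tissue for the 6 genes, was the second highest of its tissue here. Pericardium 2 lay above pericardium 1, unlike in the 6 genes. As in the 6 genes, proepicardium 3 was the highest of its tissue and the pericardium was the lowest tissue. The heart tube libraries fell from 1 to 3, as in most of the 6 genes. Macrophage genes summed to 5.19 to 141 CPM, 103 to 212 CPM and 10.9 to 28.3 CPM in the same order of tissues. Rows with the symbol MFAP4 carried most of that sum, with 48.6, 127 and 13.4 CPM for ENSDARG00000088745 alone. The remaining rows did not share 1 order: ptprc stood at 3.53, 3.52 and 0.844 CPM and csf1rb at 0.639, 0.174 and 0.206 CPM. LCP1 stood at 0.593, 1.33 and 0.370 CPM and CORO1A at 0.769, 1.57 and 0.712 CPM. The part of these cells in the levels of the apolipoprotein genes was not tested.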

How the data were processed

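The authors deposited whole-number counts of reads for each Ensembl gene, not normalised. The submitters' processing notes name CASAVA 1.8, fastp, STAR, featureCounts, DESeq2 and the build GRCz11 (danRer11), without roles or settings. Strand and multimapping settings are not given in the sources used here. The deposited normalised table is on a log2 scale, and all 193374 values lay within 1e-06 of a blind regularised log2 transformation computed here with DESeq2. It served as an alternative only.

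Of 32536 rows, 16 construct rows (at most 0.0309% of a library's counts) were left out. The test was that of edgeR 4.0.16 under R 4.3.3 (filterByExpr, minimum count 10 and total 15, TMM, robust glmQLFit, glmQLFTest), with tissue as the only factor and all 9 libraries in 1 fit, since the pericardium has 2 libraries. A call is a Benjamini-Hochberg adjusted p under 0.05 over 17003 genes. The biological coefficient of variation, as 1 value for all genes, came to 0.528. Log2 fold changes carry approximate standard errors. Each is the absolute log2 fold change divided by the square root of the F statistic of glmQLFTest. The code was tested on simulated counts. Replicates differed by more than sampling noise (chi-square per degree of freedom at least 46.0), so none was a second count of the same library. This does not tell separate pools from separate libraries made of 1 pool.

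The members and the gene lists were chosen with earlier results of these data known. Symbols named 29201 of 32520 genes, and 131 of 179 listed symbols matched. Named are the 6 genes, apolipoprotein genes by name, called genes of the pathway lists (at most 5 per list), summed marker lists with genes at 0, and the 10 genes closest in pattern; a few further genes of these lists were named after their values were seen. Similarity used log2 CPM with a prior count of 2. Alternatives were DESeq2 size factors, library sizes without mitochondrial genes and ENSDARG00000080337, leaving out the filter, asking for a mean count of 50 or more, DESeq2 1.42.0 as the tool, limma 3.58.1 either with voom and sample weights or on the deposited table, a replicate block and leaving out each library. No gene lengths, promoters or proteins were used, so levels are not per length.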

Additional observations from a re-analysis of the deposited data

How the results depend on the processing

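The log2 fold changes of the 6 genes were positive in all 102 values from the alternatives in each proepicardium contrast, from 1.095 to 3.40 against the heart tube and from 2.35 to 4.60 against the pericardium. The apolipoprotein genes called between proepicardium and heart tube numbered 12, with 7 to 14 when single libraries were left out and 11 to 14 otherwise. Of these 12, all higher in the proepicardium, 6 were the chosen genes and 6 were others, where 16.8% of all genes were called higher. Among the others, apoa4a passed the filter on low counts through the proepicardium alone. Between proepicardium and pericardium 0 were called, also without any single proepicardium or heart tube library (0 to 0). There were 5 without a filter, 10 with DESeq2, 5 with limma-voom and 2 with limma on the deposited table. The chosen genes made up 5, 6, 5 and 2 of these, where 9, 95, 6 and 3 genes were called in all. Their part of the counts in both contrasts follows from the choice and is a description. Of the 6 genes, 2 were called between heart tube and pericardium, 0 to 4 without single libraries, and 4 each without a filter, with DESeq2 and with limma-voom. Of all apolipoprotein genes 4 were called there, 1 to 5 without single libraries and 3 to 6 otherwise. The cause of these changes was not tested. Counts over all genes called without single libraries are not given beside them, nor beside those of the gene lists above. A general loss of calls with fewer libraries therefore cannot be told apart from one in these genes. Leaving out a pericardium library leaves 1, assumed to vary like the other tissues.

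Signs changed in 12 single-gene results, none of them called and none of the 6 genes. Against the heart tube, apol in the proepicardium gave 0.017 with limma on the deposited table and 0.15 with the replicate block (-0.49 to 0.55 without single libraries), and apol1 gave -0.25 with limma-voom and -0.07 on the deposited table (-0.23 to 0.51). Against the pericardium, apol gave -0.003 on the deposited table (-0.14 to 0.33), and apol1 -0.46 and -0.17 with the same pair of settings (-0.28 to 0.45). Between heart tube and pericardium, limma-voom gave -1.39 for apoa4b.2, -0.59 for apobb.2 and 0.004 for apoa4a. The deposited table gave -0.34 for apoa4b.2, -0.04 for apobb.2 and -0.02 for apol, and the block -0.36 for apoa4b.2 and -0.086 for apol. Without single libraries this contrast ran from -0.51 to 0.58 for apol, -0.44 to 0.35 for apol1, -0.79 to 0.17 for apom, -1.58 to 0.24 for apoa4b.3, -1.83 to 1.19 for apoa4b.2, -0.43 to 1.04 for apobb.2, -0.97 to 1.35 for apoa4a and -0.13 to 0.87 for apoea. The cause was not tested.

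Deviations from tissue means correlated at -0.018 to 0.13 between libraries of different tissues with the same replicate number. With 2 to 4 libraries per tissue, this cannot settle whether equal numbers mark pools prepared together. With the replicate number as a block the counts were 13, 0, 2 and 3 in the order above. All genes called numbered 5007 between proepicardium and heart tube and 4613 between heart tube and pericardium. Levels per length and a motif search in promoters were planned and not run for want of sequences. Genes of a few counts per library, such as apoa4b.3 and apoa4a, are limited by depth.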
